A study of Rattus norvegicus with 12 samples.

Results

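Collagen is built in steps by the prolyl 4-hydroxylases, the lysyl hydroxylases, the lysyl oxidases and a dedicated chaperone, and the 10 genes described here encode these proteins: P4ha1, P4ha2, P4ha3, Plod1, Plod2, Plod3, Lox, Loxl1, Loxl2 and Serpinh1. They were taken by gene symbol. Every probe set whose platform annotation gives 1 of these symbols alone was used, which gave 14 probe sets of 31042 on the array that are not controls, and 10 genes of 14217. The cells were F111, an established fibroblast line of the Fischer rat. NA16 cells were kept for 16 h in suspension on agarose, and A16 cells were kept for 16 h attached to plastic, both in the same medium with fetal calf serum. Both states carry abnormal chromosomes, but not to the same degree: the study reports more aneuploidy and other chromosomal abnormalities in NA16 than in A16 cells. It describes only a minority of suspended F111 cells as still viable at 16 h, with the others lost to anoikis, the death that follows detachment. The NA16 RNA thus comes from a stressed and partly dying population. Effects of suspension, of cell loss and of karyotype cannot be told apart here. There were 3 Affymetrix arrays per state, labelled biological replicate 1, technical replicate 2 and biological replicate 2. The comparison asks which transcripts differ after 16 h without adhesion.

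As background, newly made collagen chains are modified in the endoplasmic reticulum before they fold into a triple helix. Prolyl 4-hydroxylase, a tetramer of P4HA catalytic subunits and the P4hb subunit, makes the hydroxyproline that keeps the helix stable at body temperature. Lysyl hydroxylases of the PLOD family make hydroxylysine, the residue from which sugars and the firmest cross-links are built. Both enzyme families need oxygen, iron, oxoglutarate and ascorbate. The chaperone HSP47, encoded by Serpinh1, binds procollagen in the endoplasmic reticulum. Outside the cell the copper enzymes of the lysyl oxidase family oxidise lysine and hydroxylysine, which starts the cross-links of collagen and elastin. P4ha1, P4ha2, Plod1, Plod2 and Lox are known from human and mouse cells as genes that can be induced by the hypoxia-inducible factor (HIF).

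Values below are log2 RMA intensities, where RMA is the algorithm by which the brightness of the probes of a probe set was normalized and summarised, and a difference of 1 is a 2-fold difference. For means and SDs the technical replicate 2 array was averaged with biological replicate 1, which left n = 2 replicates per state. A gene is said to have risen or fallen where limma gave an adjusted p (Benjamini-Hochberg over all 14217 genes, each by its brightest probe set) below 0.05. The median RMA intensity was 152 to 157 on the 6 arrays. The array of NA16 biological replicate 1 stood somewhat apart: its differences from the other 2 NA16 arrays had SDs of 0.269 and 0.322 over all probe sets, while these 2 differed from each other by an SD of 0.175. In A16 it was technical replicate 2 and biological replicate 1 that differed least, with an SD of 0.175, so the 2 states do not place the technical replicate alike. Without the NA16 array of biological replicate 1, 6 of the 10 genes were called higher and 3 lower, the same numbers as with it. The NA16 replicates were then the 2 arrays that differed least, so this cannot test their spread. As for cell identity, Vim, Col1a1 and Fn1 lay at 13.58 or above in both states, whereas Fap and Dcn, which also mark fibroblasts, lay at 6.08 or below, near the dim end of the array. Of 10 fibroblast markers 4 were higher, Pdgfrb (1.40), Pdgfra (0.78), Dcn (0.58) and Thy1 (0.47), and 0 lower, while their summed intensity was 90310 to 116500 in NA16 and 108400 to 122300 in A16 arrays. That of 7 epithelial markers was 2751 to 3195 in NA16 and 1313 to 1501 in A16 arrays, with 2 of the 7 higher (Krt8 and Epcam). This sum is mostly Krt8, at 11.38 in NA16 and 10.12 in A16, while the others lay at 6.49 or below in both states. Cdh1 and Krt18 lay at 5.44 or below in both. Krt18 was not called, though all its NA16 arrays lay below all its A16 arrays. Of 8 macrophage markers 2 were higher, Cd68 and Lyz2, while Ptprc and Adgre1 lay at 5.82 or below. Cd14, the brightest of the 8, was at 10.17 in NA16 and 10.52 in A16 and was not called, though all its NA16 arrays lay below all its A16 arrays. The summed intensity of the 8 was 2011 to 2305 in NA16 and 1965 to 2237 in A16 arrays. On the RNA quality controls, the 3′ probe set of beta-actin exceeded the 5′ one by 0.87 to 0.93 in NA16 and by 0.37 to 0.44 in A16 arrays. For GAPDH this difference was -0.03 to 0.06 in NA16 and -0.07 to 0.00 in A16 arrays. For hexokinase it was 0.77 to 0.80 in NA16 and 0.76 to 0.97 in A16 arrays. The part of these differences in the results below was not tested. In such bulk samples, fewer cells of a type and less RNA per cell cannot be told apart.

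Of the 10 genes, 6 rose, 3 fell and 1 did not pass the test. Among all genes 38.9% were called, 21.9% higher and 16.9% lower, so calls were common in this comparison. The genes that rose were P4ha1, P4ha2, Plod1, Plod2, Plod3 and Loxl2, and those that fell were P4ha3, Lox and Loxl1. Serpinh1 was not called. At least 2-fold changes were found for 4 genes that rose, P4ha1, P4ha2, Plod1 and Plod2, and for 1 that fell, P4ha3, against 7.74% and 6.12% of all genes. The median change of the 10 genes was 0.66, where that of all genes was 0.01. The 3 NA16 arrays lay entirely above the 3 A16 arrays for 6 of the 10 genes and entirely below for 4, which was also true of 27.8% and 23.9% of all genes.

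**Figure D1:**
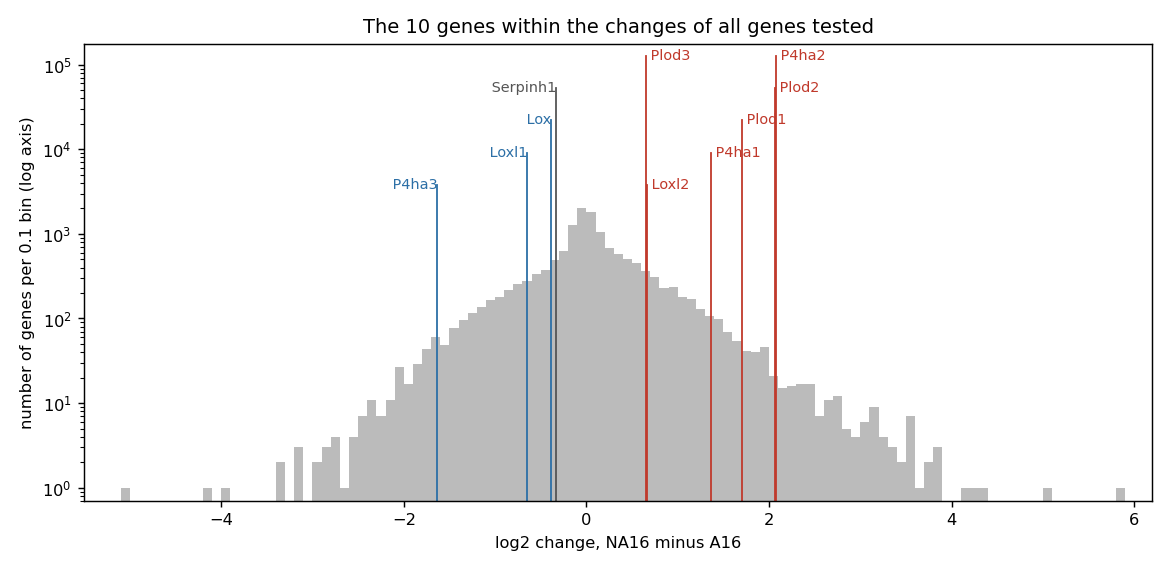
Histogram of the log2 change of NA16 over A16 (x axis) of all 14217 genes (y axis, number of genes per bin, log axis), with a vertical line for each of the 10 genes, red if called higher, blue if called lower and grey if not called. P4ha2 and Plod2 stand at 2.07 and 2.06 in the upper tail and P4ha3 at -1.63 in the lower tail.

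The catalytic subunits of prolyl 4-hydroxylase moved apart. P4ha2, the type II subunit gene (probe set 1372610_at), rose most of the 10. It was at 13.11, 13.25 and 13.31 on the NA16 arrays of biological replicate 1, technical replicate 2 and biological replicate 2, and at 11.40, 11.24 and 11.02 on the A16 arrays in the same order. All NA16 arrays were thus high and close together, well clear of the A16 arrays. The means were 13.24 ± 0.09 in NA16 and 11.17 ± 0.21 in A16 (SD, n = 2), a rise of 2.07 ± 0.14 (SE) or 4.20-fold (limma adjusted p = 0.000101), which ranked 153 from the highest of 14217 genes.

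P4ha1 (1370954_at) encodes the type I subunit, the main catalytic form in most fibroblasts. Its level was 12.82, 13.30 and 13.39 on the NA16 arrays and 11.66, 11.79 and 11.99 on the A16 arrays. The lowest NA16 array, biological replicate 1, still lay above the highest A16 array. The rise was 1.37 ± 0.16 (SE) or 2.58-fold (limma adjusted p = 0.000711).

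P4ha3 (1393129_at), the gene of the remaining catalytic subunit, went the other way. It read 10.40, 10.58 and 10.35 on the NA16 arrays, against 12.14, 11.98 and 12.03 on the A16 arrays. The A16 arrays lay close together and far above every NA16 array. The means were 10.42 ± 0.10 in NA16 and 12.05 ± 0.02 in A16 (SD, n = 2), a change of -1.63 ± 0.12 (SE), 3.10-fold lower in NA16 (limma adjusted p = 0.000113), which ranked 213 from the lowest. The opposite changes of P4ha3 and of its paralogs both passed the test, so the 3 subunit genes did not change as a unit.

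The start regions of these subunit genes are shown with matches to the core of the hypoxia response element, the short sequence that HIF binds. The letters searched were ACGTG and GCGTG on both strands, that is also CACGT and CACGC, in the window from 250 bases before to 50 after the annotated start site (RefSeq, assembly GRCr8), and capitals mark each match. The P4ha1 window is chr20:27844796-27845095 on the plus strand, that of P4ha2 is chr10:38743644-38743943 on the plus strand and that of P4ha3 is chr1:164040614-164040913 on the plus strand.
P4ha1: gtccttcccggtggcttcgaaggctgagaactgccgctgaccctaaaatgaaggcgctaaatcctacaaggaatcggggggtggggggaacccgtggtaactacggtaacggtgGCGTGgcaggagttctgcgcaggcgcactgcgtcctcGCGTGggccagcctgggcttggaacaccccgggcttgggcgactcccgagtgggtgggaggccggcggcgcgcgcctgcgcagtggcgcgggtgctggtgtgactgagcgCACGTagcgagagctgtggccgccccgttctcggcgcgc
P4ha2: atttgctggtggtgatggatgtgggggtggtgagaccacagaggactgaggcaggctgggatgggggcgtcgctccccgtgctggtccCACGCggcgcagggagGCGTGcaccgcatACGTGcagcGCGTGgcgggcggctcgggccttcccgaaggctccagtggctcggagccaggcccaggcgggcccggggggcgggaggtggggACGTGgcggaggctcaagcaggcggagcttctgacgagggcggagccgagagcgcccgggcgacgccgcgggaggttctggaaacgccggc
P4ha3: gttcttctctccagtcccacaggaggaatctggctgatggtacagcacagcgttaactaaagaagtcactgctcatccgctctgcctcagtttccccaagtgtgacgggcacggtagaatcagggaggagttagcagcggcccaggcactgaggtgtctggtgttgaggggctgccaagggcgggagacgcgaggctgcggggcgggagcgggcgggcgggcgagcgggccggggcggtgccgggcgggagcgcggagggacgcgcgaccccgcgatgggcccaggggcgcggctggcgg
The P4ha1 window holds 3 matches, that of P4ha2 holds 5 and that of P4ha3 holds 0. A match is a run of letters and not a known binding site, and the search was chosen after the changes were known. Of all 33469 promoters of this length, 41.6% hold a match and 8.15% hold 3 or more. Whether the matches bear on the changes was not tested.

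All 3 lysyl hydroxylase genes rose. Plod2 (1372897_at), whose enzyme hydroxylates the telopeptide lysines that give the firmest collagen cross-links, read 12.63, 12.67 and 12.76 on the NA16 arrays and 10.53, 10.56 and 10.74 on the A16 arrays. Both states were tight, and the gap between them was many times the spread within either. The means were 12.70 ± 0.08 in NA16 and 10.64 ± 0.13 in A16 (SD, n = 2), a rise of 2.06 ± 0.12 (SE) or 4.18-fold, with the lowest limma adjusted p of the 10 genes (7.44e-05).

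The Plod2 start region, chr8:101964068-101964367 on the plus strand of GRCr8, is given with the same capitals because Plod2 had the second largest rise. Its window holds 4 matches, and 3.46% of all promoters hold 4 or more.
Plod2: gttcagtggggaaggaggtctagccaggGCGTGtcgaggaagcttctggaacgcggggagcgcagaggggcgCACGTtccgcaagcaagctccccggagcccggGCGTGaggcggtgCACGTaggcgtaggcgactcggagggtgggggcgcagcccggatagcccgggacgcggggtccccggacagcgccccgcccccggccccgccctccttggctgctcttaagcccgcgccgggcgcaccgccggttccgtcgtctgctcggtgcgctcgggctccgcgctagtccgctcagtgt
Of the 4 matches, 2 are ACGTG and 2 are GCGTG.

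Plod1 (1367807_at), whose enzyme acts mainly on lysines of the triple helix, read 13.27, 13.65 and 13.76 on the NA16 arrays and 11.87, 11.87 and 11.95 on the A16 arrays. The NA16 arrays were spread more widely than the A16 arrays but did not come near them. The rise was 1.70 ± 0.14 (SE) or 3.25-fold (limma adjusted p = 0.000175). Plod3 (1372877_at), whose enzyme also adds sugars to hydroxylysine, changed least of the 3. Its levels were 12.23, 12.76 and 12.86 on the NA16 arrays, against 12.13, 12.16 and 11.91 on the A16 arrays. The NA16 array of biological replicate 1 lay only just above the A16 arrays, and the other 2 lay clearly above. The rise was 0.65 ± 0.16 (SE) or 1.57-fold (limma adjusted p = 0.0169). It was 0.78 without that array, which left the 2 most alike NA16 arrays as replicates. The call was lost with the technical replicate arrays left out (0.53, limma adjusted p = 0.148). It was also lost with technical replicate 2 averaged with biological replicate 2 (0.44, limma adjusted p = 0.158). Without NA16 replicate 2 (0.47) or A16 replicate 2 (0.53) the call was lost too.

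**Figure D2:**
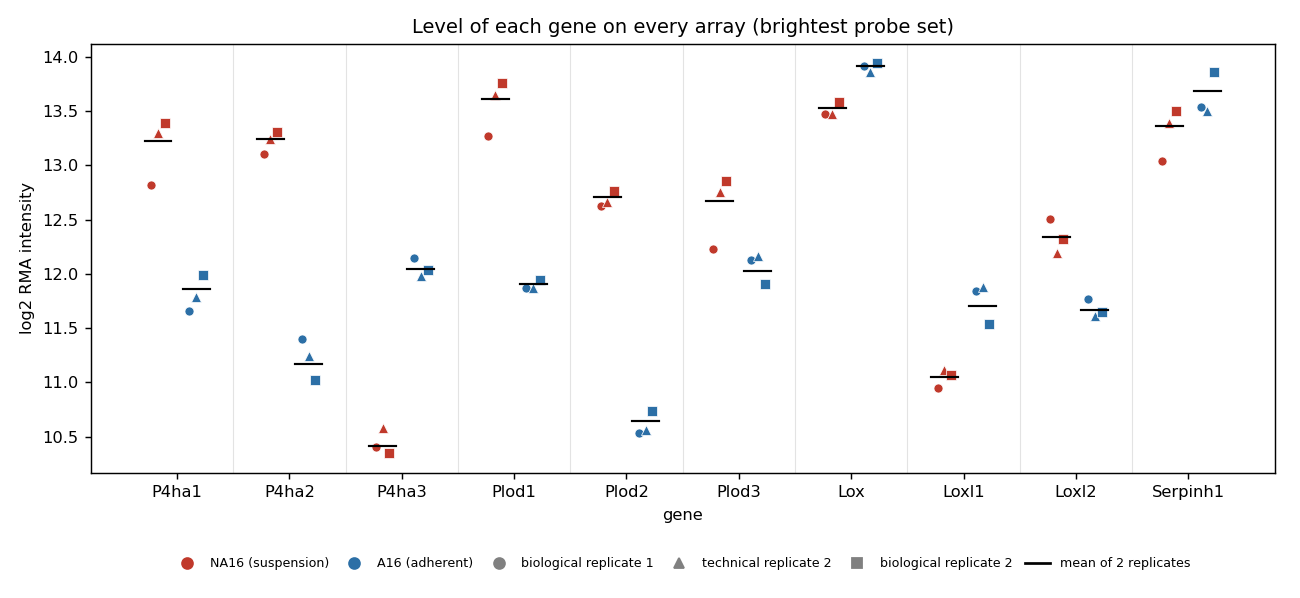
Log2 RMA intensity (y axis) of the brightest probe set of each gene (x axis) on every array, NA16 in red and A16 in blue, with a symbol for each array and a black line for the mean of the 2 replicates. The states stand far apart for P4ha1, P4ha2, P4ha3, Plod1 and Plod2, and close together for Plod3, Lox and Serpinh1.

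The lysyl oxidase genes changed less, and in both directions. Loxl2 (1391450_at), whose enzyme carries scavenger receptor domains and cross-links basement membrane collagen, read 12.51, 12.20 and 12.32 on the NA16 arrays and 11.77, 11.61 and 11.65 on the A16 arrays. Every NA16 array was above every A16 array, here with NA16 biological replicate 1 the highest. The rise was 0.67 ± 0.11 (SE) or 1.59-fold (limma adjusted p = 0.00296).

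Loxl1 (1388902_at), needed for elastic fibre upkeep in mice, was lower in suspension. It read 10.95, 11.11 and 11.07 on the NA16 arrays, against 11.84, 11.88 and 11.54 on the A16 arrays. The NA16 arrays agreed closely, and among the A16 arrays biological replicate 2 was nearest to them. The change was -0.65 ± 0.14 (SE), 1.57-fold lower in NA16 (limma adjusted p = 0.00965).

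Lox (1368171_at), the founding member of the family and one of the brightest transcripts here, read 13.47, 13.47 and 13.58 on the NA16 arrays and 13.91, 13.86 and 13.94 on the A16 arrays. The gap was small, but the states did not overlap. The change was -0.39 ± 0.11 (SE), 1.31-fold lower in NA16 (limma adjusted p = 0.0338). The mean level of this probe set exceeded that of 99.4% of all probe sets, close to the brightest values of the array, which can compress a difference. Without NA16 replicate 1 or 2 the change was -0.33 and -0.44, and without A16 replicate 1 or 2 it was -0.41 and -0.36. The call was lost in each of these fits. A state then kept a single replicate, so the loss cannot show whether the call depends on a particular replicate. The call was also lost with the technical replicate arrays left out (-0.40, limma adjusted p = 0.0751) and in the PLIER columns (-0.36, limma adjusted p = 0.0718).

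Serpinh1, the HSP47 gene (1371310_s_at), read 13.04, 13.39 and 13.50 on the NA16 arrays and 13.54, 13.50 and 13.86 on the A16 arrays. All NA16 arrays were below all A16 arrays, but the highest NA16 and the lowest A16 array were nearly equal. The change was -0.33, with a 95% interval of -0.71 to 0.05 (limma adjusted p = 0.164), and it was -0.19 without NA16 replicate 1, -0.47 without NA16 replicate 2, -0.50 without A16 replicate 1 and -0.16 without A16 replicate 2. Like Lox it lay near the top of the scale, above 99.3% of all probe sets on the mean of both states.

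For 4 genes a second probe set gave a further reading, tested in a limma fit over all 31042 probe sets, of which 27.5% were called, 14.3% higher and 13.2% lower. Of the 14 probe sets, 7 were called higher, 4 lower and 3 were not called. The dimmer P4ha2 probe set, 1375332_at, read 10.00, 10.02 and 10.61 on the NA16 arrays and 8.55, 8.82 and 8.90 on the A16 arrays. It rose by 1.52 ± 0.21 (SE, adjusted p = 0.00429), in the same direction as the brighter one, and by 2.29 in the PLIER columns, the values of the second algorithm that was deposited for the same arrays. The second Lox probe set, 1368172_a_at, read 13.20, 12.94 and 13.19 on the NA16 arrays and 13.59, 13.49 and 13.79 on the A16 arrays. Its change of -0.53 ± 0.13 (SE, adjusted p = 0.0292) had the same sign as that of the first, and its call too was lost without NA16 replicate 1 (-0.47, adjusted p = 0.152), NA16 replicate 2 (-0.59, adjusted p = 0.0798) or A16 replicate 2 (-0.41, adjusted p = 0.0994), with the technical replicate arrays left out (-0.49, adjusted p = 0.0551) and in the PLIER columns (-0.53, adjusted p = 0.0562). The second Loxl2 probe set, 1380474_at, was the only 1 of the 14 whose arrays overlapped between the states. It read 10.86, 11.29 and 11.36 on the NA16 arrays and 10.34, 10.58 and 11.12 on the A16 arrays, with A16 biological replicate 2 above the lowest NA16 array. Its change was 0.43, with a 95% interval of -0.15 to 1.01 (adjusted p = 0.269), and it was called without A16 replicate 2 (0.76, adjusted p = 0.0345), while without A16 replicate 1 the change was 0.10 (adjusted p = 0.754). The second Serpinh1 probe set, 1369009_at, was dim, with 5.64, 5.67 and 5.80 on the NA16 arrays and 6.09, 5.85 and 6.10 on the A16 arrays. Its change of -0.31 was not called (adjusted p = 0.109), although it was called with every array as its own replicate (adjusted p = 0.0469). In none of the 4 genes did the 2 probe sets differ in sign.

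**Figure D3:**
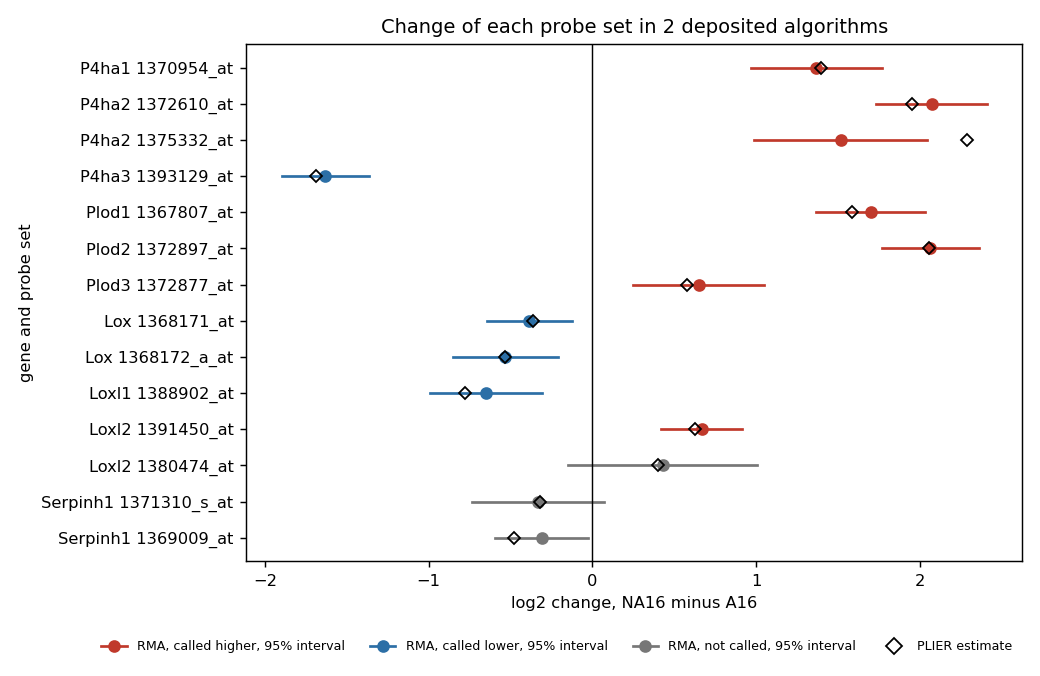
Log2 change of NA16 over A16 (x axis) of all 14 probe sets (y axis), with filled circles and lines for the RMA estimate and its 95% interval and open diamonds for the PLIER estimate. The 2 algorithms gave the same sign for every probe set, and they lay furthest apart for P4ha2 1375332_at, at 1.52 by RMA and 2.29 by PLIER.

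Mean level and start region were also read for the 10 genes. Where a gene had several probe sets, the brightest was picked by mean level, which in part lifts its percentile. The probe sets it was ranked against include those without a gene symbol. With 1 exception, the dim Serpinh1 probe set, every probe set lay at the 75.1th percentile of mean level over all probe sets or higher, and the brightest probe sets of the 10 genes lay between the 92.7th and the 99.4th percentile. Start regions were held for 8 of the 10 genes, not for Lox and Loxl2. A match to ACGTG or GCGTG was found in 5 of these 8, where 41.6% of all 33469 promoters of the same length hold one, and 3 or more matches in 3 of the 8 (P4ha1, P4ha2 and Plod2), where 8.15% of all promoters do. Plod1 has 1 match and Plod3 has 2. The windows of P4ha3, Loxl1 and Serpinh1 hold 0 matches. The 8 windows were richer in G and C, at 60.7% to 73.7%, than the median promoter at 51.7%, and base composition alone changes how often such letters occur. No match says only that these letters are not in this window.

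Other genes of collagen and elastin assembly were read from the same fit. Of 16 measured genes for other modifiers and chaperones of the endoplasmic reticulum, 4 rose and 0 fell, and the median change was 0.08. With 21.9% of all genes called higher and 16.9% lower, the counts in this and the next 3 lists are descriptions and set none of the lists apart from other genes. P4hb, the partner subunit of the P4HA proteins and also a disulfide isomerase, rose by 0.50 ± 0.11 (SE, limma adjusted p = 0.0121), to 14.49 ± 0.08 in NA16, against 13.99 ± 0.06 in A16 (SD, n = 2). The collagen isomerase genes Fkbp14 and Fkbp10 rose by 0.66 and 0.44 (adjusted p = 0.0106 and 0.0292), and Sil1, an exchange factor of the general chaperone BiP, by 0.99 (adjusted p = 0.00158). No change was called for P3h1, Crtap and Ppib, which work together on collagen as the prolyl 3-hydroxylase complex. Their changes were 0.10, 0.07 and -0.05 (limma adjusted p = 0.639, 0.811 and 0.82). Crtap was dim, at 6.33 in NA16 and 6.26 in A16, which limits what its value can show. P3h4, of the same list, had a larger change of -0.84 (limma adjusted p = 0.0749). It was not called either, though all its NA16 arrays lay below all its A16 arrays. The Fkbp10 call was lost in the PLIER columns (0.35) and with the technical replicate arrays left out (0.34), and also without A16 replicate 1 (0.47), A16 replicate 2 (0.41) or NA16 replicate 2 (0.33); that of P4hb was lost without A16 replicate 1 (0.46) or NA16 replicate 2 (0.45), and that of Fkbp14 without A16 replicate 2 (0.53).

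Among the substrates of these enzymes, of 14 genes for fibrillar collagens and elastic fibre proteins, 1 rose and 3 fell, with a median change of -0.12. The main fibrillar collagen genes Col1a1, Col1a2 and Col3a1 had changes of -0.32, -0.23 and 0.50 with adjusted p = 0.386, 0.321 and 0.153. These values rested on single replicates. The Col1a1 change was -0.62 without NA16 replicate 2 but -0.02 without NA16 replicate 1. It was -0.60 without A16 replicate 1 but -0.04 without A16 replicate 2. The Col3a1 change was 0.67 without NA16 replicate 1 but 0.33 without NA16 replicate 2. It was 0.84 without A16 replicate 2 but 0.15 without A16 replicate 1. Fbn1, the fibrillin gene, fell by 2.00 (adjusted p = 6.94e-05), Col5a3, a minor fibrillar collagen gene, by 1.06 (adjusted p = 0.00779) and the elastic fibre gene Fbln5 by 0.82 (adjusted p = 0.0102), a call lost without A16 replicate 2 (-0.63). Efemp2, whose protein brings lysyl oxidase to elastin, was 0.46 higher (adjusted p = 0.0296), but its arrays overlapped and 9 of 17 alternatives lost the call, among them those without NA16 replicate 2 (0.33), A16 replicate 1 (0.43) or A16 replicate 2 (0.48).

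Of 7 measured genes for procollagen processing and further cross-linkers, 3 rose and 0 fell, with a median change of 0.09. They were Lum (1.15) and Dcn (0.58), which encode small proteoglycans that bind collagen fibrils, and the transglutaminase gene Tgm2 (0.77), with adjusted p = 0.00401, 0.045 and 0.0135. The Dcn change was 0.33 without NA16 replicate 1, 0.70 without A16 replicate 1 and 0.47 without A16 replicate 2, and in each the call was lost. The Tgm2 call was lost without A16 replicate 2 (0.59), with technical replicate 2 averaged with biological replicate 2 (0.52, adjusted p = 0.0911) and with the technical replicate arrays left out (0.65, adjusted p = 0.0963). The lysyl oxidase gene Loxl3 had a change of -0.23 (adjusted p = 0.332), and Bmp1, whose protease trims procollagen and activates Lox, one of -0.05 (adjusted p = 0.953), which was 0.43 without NA16 replicate 1 and 0.48 without A16 replicate 2.

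Of 10 genes for the supply of ascorbate and copper, 3 rose and 0 fell, with a median change of 0.12. Atp7a, the pump that loads copper into lysyl oxidases in the secretory pathway, was at 11.96, 11.81 and 11.69 on the NA16 arrays and at 10.29, 10.34 and 10.15 on the A16 arrays. All 3 NA16 arrays were clear of the A16 arrays, and the rise was 1.56 ± 0.13 (SE) or 2.94-fold (limma adjusted p = 0.000199). Slc31a2, a copper transporter gene, rose by 0.65 (adjusted p = 0.00415). Averaged over every probe set of the gene, these rises were 0.98 and 0.38 (adjusted p = 0.0011 and 0.0363). Against this, the copper importer gene Slc31a1 had a change of -0.26 (adjusted p = 0.272), called lower when averaged so (-0.35, adjusted p = 0.0391). Slc2a1, whose protein carries glucose and also oxidised ascorbate, rose by 2.58 (adjusted p = 7.62e-05), and the ascorbate transporter gene Slc23a2 had a change of -0.11 (adjusted p = 0.55).

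**Figure D4:**
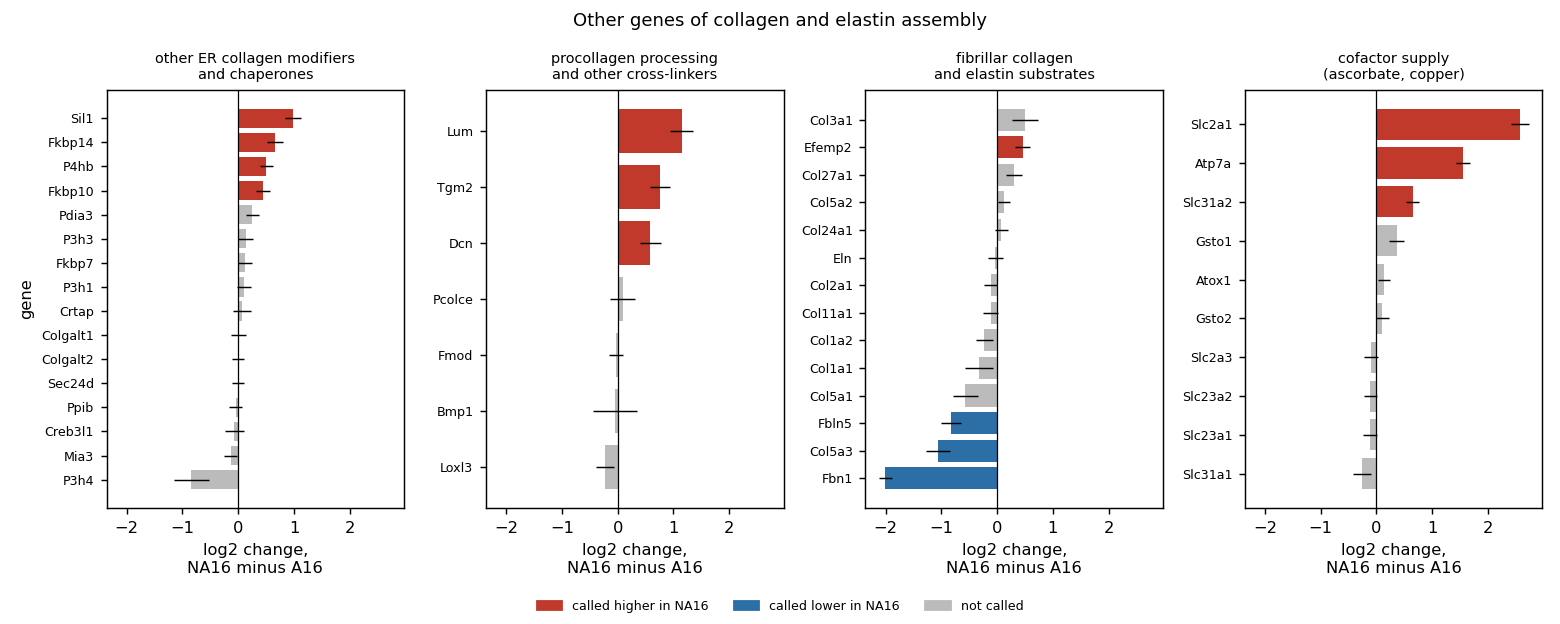
Log2 change of NA16 over A16 (x axis, bars with SE) of the measured genes (y axis) in 4 lists around the 10 genes, red if called higher, blue if called lower and grey if not called. P4hb (0.50) and Atp7a (1.56) are among the called genes and Fbn1 has the largest fall among the genes shown.

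Across 17 alternative ways of processing the arrays, none of the 10 genes changed sign, but several of these (the trended and robust variance, the methods' t-test, the filter on low values and the replicate block) change only the test and leave the estimate as it was. P4ha1, P4ha2, P4ha3, Plod1, Plod2, Loxl1 and Loxl2 kept their calls in 16 of the 17, the exception being the methods' t-test after Benjamini-Hochberg adjustment, under which none of the 10 was called. Not all of these kept calls are informative. Without a whole replicate, a state kept a single replicate and had no spread of its own. With the replicate block and technical replicate 2 averaged with biological replicate 2, the limma adjusted p of P4ha2 was 5.96e-47, against 0.000101 in the main fit. The variance in such fits was largely shared over all genes, so a large change was almost bound to be called. Over the 17 alternatives P4ha2 lay between 1.79 and 2.22, Plod2 between 1.97 and 2.16 and P4ha3 between -1.72 and -1.56, ranges that do not touch those of Plod3 (0.44 to 0.83) or Lox (-0.46 to -0.33).

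**Figure D5:**
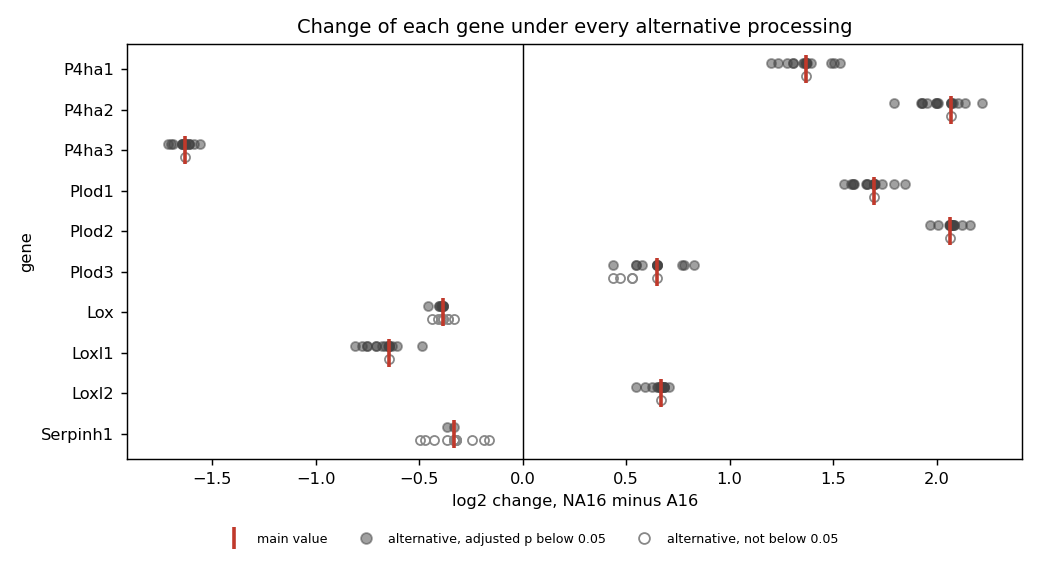
Log2 change of NA16 over A16 (x axis) of each of the 10 genes (y axis) under 17 alternatives, filled above the line of the gene where the adjusted p was below 0.05 and open below it otherwise, with the main value as a red bar. Plod3, Lox and Serpinh1 have alternatives on each side of the threshold, while P4ha1, P4ha2, P4ha3, Plod1, Plod2, Loxl1 and Loxl2 have 1 open point each.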

How the data were processed

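Total RNA of F111 cells was labelled and hybridised to Affymetrix rat expression arrays. The authors normalized the arrays in Avadis by RMA and by PLIER, without versions in the sources used here, and the values as deposited are normalized intensities on a linear scale, 12 columns from 6 arrays. Every RMA value lay above 16, so a constant may have been added, which would understate changes of dim genes. Log2 was taken here, and PLIER served as an alternative.

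The labels do not say outright which sample technical replicate 2 repeats. It was averaged with biological replicate 1, which is also numbered technical replicate 1, and other placings were tried. The study states biological and technical repetition but not whether biological replicates were separate cultures, so p-values reflect only how these samples spread, possibly a technical spread. The number of arrays limits the precision.

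Of 31042 probe sets that are not controls, 20826 had 1 gene symbol, 436 several and 9780 none here; 20758 matched RefSeq (GRCr8) by Entrez identifier, which changed 0 symbols. NA16 and A16 were compared in limma 3.58.1 (R 4.3.3; linear models, then empirical Bayes), with 2 residual and 4.78 prior degrees of freedom, once over 14217 genes (brightest probe set) and once over all probe sets, at an adjusted p threshold of 0.05. The fit was tested on simulated data. The text names the 10 genes and, of each of the 4 other lists, up to 4 called genes by size of change. Those further named (P3h1, P3h4, Crtap, Ppib, Col1a1, Col1a2, Col3a1, Loxl3, Bmp1, Slc31a1, Slc23a2 and single cell type markers) were chosen after their values were seen. The genes, lists and motif were chosen with earlier results of these data known. The endothelial markers, also read, had 1 of 6 measured genes higher and 0 lower. Alternatives covered the algorithm, the technical replicate, the variance model, the methods' t-test, low values, the constant, the probe set rule, a replicate block and leaving out replicates.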

Additional observations from a re-analysis of the deposited data

How the results depend on the processing

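With 2 replicates per state, the calls depend on limma's moderated variance. The methods' t-test after Benjamini-Hochberg adjustment called 13 genes higher and 7 lower of 14217, and 0 of the 10 genes, 0 of the 14 probe sets and 0 genes of each of the 4 other lists. At an unadjusted p below 0.05 and at least 2-fold change it called 1020 higher and 789 lower, among them 4 of the 10 genes higher and 1 lower, 5 of the 14 probe sets higher and 1 lower, 0 of the modifier and chaperone genes, 0 of the processing genes, 1 of the substrate genes and 2 of the cofactor supply genes. The number of the 14 probe sets called lower was 2 in the PLIER columns, 2 with the technical replicate arrays left out and 1 to 4 when replicates or arrays were left out, against 4. Likewise the modifiers and chaperones had 2 to 4 called genes against 4, and the processing genes 1 to 3 against 3, with 1 when the technical replicate arrays were left out. The values of replicates 1 and 2 differed in a like way in both states (r = 0.56 across genes of the differences, where genes are not independent replicates), but 2 pairs that share only a number do not establish pairing. With the replicate block Serpinh1 was called lower (-0.33, adjusted p = 0.0174), as was its dim probe set (-0.31), Loxl2 1380474_at was called higher (0.43, adjusted p = 0.0226), and the substrate list had 8 called genes against 4, among them Col1a1 lower (adjusted p = 0.0198) and Col3a1 higher (adjusted p = 0.00534). Chosen after seeing the data, the block with technical replicate 2 averaged with biological replicate 2 gave 7 for that list. Col1a1 was again lower and Col3a1 higher. Leaving out the NA16 array of biological replicate 1, also chosen so, kept 6 of the 10 genes called higher and 3 lower. It left the 2 most alike NA16 arrays as replicates, so it cannot test their spread. In that fit 3535 genes were called higher, against 3115 in the main fit. None of the 10 genes, their further probe sets or the called genes named from the 4 other lists changed sign under any alternative run. Small changes that were not called did. P3h1 was -0.022 with technical replicate 2 averaged with biological replicate 2, with or without the block, and Bmp1 was 0.035 in the PLIER columns and 0.11 without the NA16 array of biological replicate 1. Without single replicates P3h1 lay between -0.0018 and 0.20, Crtap between -0.10 and 0.23, Ppib between -0.13 and 0.035 and Bmp1 between -0.57 and 0.48. Probe sets near the top of the scale (Lox, Serpinh1) or near its lower end (Serpinh1 1369009_at) limit what a small change there can show. In NA16, Plod1 (13.61) and P4hb (14.49) also lay near the top, where a difference can be compressed too.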
